A study of Mus musculus with 18 samples.

Results

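The genes described here are 9 regulators of entry into the cell cycle, the CDK inhibitors *Cdkn1a*, *Cdkn1b*, *Cdkn1c*, *Cdkn2b*, *Cdkn2c* and *Cdkn2d* and the D-type cyclins *Ccnd1*, *Ccnd2* and *Ccnd3*, out of 22909 gene symbols on the array. They were chosen by name, and the deposited table holds them in 12 of its 28856 transcript clusters, a transcript cluster being the group of probes that the array design assigns to 1 transcription unit. For *Cdkn1b*, *Ccnd1* and *Ccnd2*, which have 2 each, the brighter cluster on average across the 18 arrays stands for the gene and the other is described beside it.

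D-type cyclins bind and activate Cdk4 and Cdk6, which phosphorylate the retinoblastoma protein and its relatives and so release E2F factors that drive DNA replication genes. The INK4 inhibitors (*Cdkn2b*, *Cdkn2c*, *Cdkn2d*) bind Cdk4 and Cdk6 and block their pairing with D cyclins, whereas the Cip/Kip inhibitors (*Cdkn1a*, *Cdkn1b*, *Cdkn1c*) bind cyclin and kinase together and chiefly block Cdk2. In the glomerulus, the filter of the kidney, mature podocytes are known as cells that have left the cell cycle and hold high levels of p57, while mesangial and endothelial cells keep the capacity to divide.

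The 3 major glomerular cell types were measured at 5 weeks of age in *Cd2ap* mutant mice, which lack an adaptor protein of the podocyte slit diaphragm and develop glomerulosclerosis, and in controls. Mutants carried the *Cd2ap* tm1Shaw allele (CD2AP-/-) in all cells, on a B6.129X1 background, and controls are labelled wildtype. Each cell type was sorted as GFP positive cells of dissociated glomeruli, with a reporter of its own for each, *Meis1-GFP* in mesangial cells and *Tie2-GFP* in endothelial cells among them, so the reporter, carried in both genotypes of a cell type, sets which cells were measured. Amplified RNA of 3 mutant and 3 wild type preparations of each cell type was hybridized, 18 arrays in 6 groups.

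Several facts of the arrays bear on what follows. The column names of the mesangial controls carry a plus and a minus sign, those of the other controls a pair of plus signs, and the sample titles call the mesangial ones control and the others wild type. The genotype field gives wildtype for every control, and whether a heterozygous genotype is meant for the mesangial ones is not settled. The arrays of a group are named A, B and C here by column order. The series record speaks of biological triplicates without saying whether animals were pooled, and the p-values measure only the spread between these arrays. *Cd2ap* did not check the labels: its signal in mutant against wild type arrays gave log2 fold changes of -0.31 in mesangial cells, -0.23 in podocytes and 0.18 in endothelial cells, with adjusted p of 0.151, 0.504 and 0.336, so each direction rests on the labels. Whether the probes of its cluster lie in the part altered in the mutant allele is not given in the sources used here.

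The median signal of an array was 62.8 to 71.6, and groups of 3 arrays limit precision. Each sort was rich in its own markers. The summed signal of 7 podocyte markers was 10698.3 to 13369.9 in podocyte arrays, that of 5 mesangial markers 5782.3 to 9245.8 in mesangial arrays and that of 7 endothelial markers 13607.4 to 15968.5 in endothelial arrays. Mesangial wild type array C stood apart, with a podocyte marker sum of 3536.4 against 784.5 and 957.8 in arrays A and B. Its endothelial marker sum was 7139.5 against 2185.4 and 2612.9. The tubule marker sum of array C was 905.9 against 376.9 and 353.5, and the leukocyte marker sum 872.2 against 442.5 and 417.8. The endothelial marker sum of podocyte arrays was 679.0 to 2419.8 in mutants and 4060.6 to 5344.6 in wild types. Their mesangial marker sum was 760.1 to 2406.8 in mutants and 2652.4 to 3486.6 in wild types. The Pearson r of log2 signal between replicate arrays was 0.967 to 0.971 in podocyte mutants, the lowest of the 6 groups. The summed signal of 4 Y-linked genes was high in endothelial mutant arrays A and B, mesangial wild type arrays B and C, podocyte mutant array B and podocyte wild type array A, at 861.3 to 1460.9, and 111.8 to 120.5 in the other 12 arrays.

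By the clusters that stand for the genes, *Cdkn1a* and *Cdkn2c* passed the genotype screen described below, *Cdkn2c* through its mutant arrays alone. Their promoters are the sequences of most interest. They are given from RefSeq, build GRCm38.p6, 5′ to 3′ on the strand of the gene, from 250 bases before to 50 bases after each annotated start, in lower case with a motif match in capitals. The table holds 9 such promoters for 6 of the 9 genes. In the first, the capitals mark a p53 element, 2 adjoining half-sites with at most 1 mismatch outside their cores, in the next 2 they mark the GC box GGGCGG and in the last the E-box CACGTG, the core to which Myc binds.
Cdkn1a, outer start, chr17:29090729-29091028, plus strand: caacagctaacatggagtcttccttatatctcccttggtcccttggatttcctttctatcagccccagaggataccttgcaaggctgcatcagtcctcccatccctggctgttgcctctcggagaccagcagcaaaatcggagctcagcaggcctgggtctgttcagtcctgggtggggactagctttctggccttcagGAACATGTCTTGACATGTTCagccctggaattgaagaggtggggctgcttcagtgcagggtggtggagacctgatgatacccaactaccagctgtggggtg
Cdkn1a, inner start, chr17:29093519-29093818, plus strand: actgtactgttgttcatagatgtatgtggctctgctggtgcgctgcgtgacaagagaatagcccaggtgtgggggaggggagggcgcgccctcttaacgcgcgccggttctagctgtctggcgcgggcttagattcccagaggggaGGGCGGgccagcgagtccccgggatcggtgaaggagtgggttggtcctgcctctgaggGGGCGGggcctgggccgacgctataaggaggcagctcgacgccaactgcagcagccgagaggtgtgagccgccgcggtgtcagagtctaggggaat
Cdkn2c, outer start, chr4:109666707-109667006, minus strand: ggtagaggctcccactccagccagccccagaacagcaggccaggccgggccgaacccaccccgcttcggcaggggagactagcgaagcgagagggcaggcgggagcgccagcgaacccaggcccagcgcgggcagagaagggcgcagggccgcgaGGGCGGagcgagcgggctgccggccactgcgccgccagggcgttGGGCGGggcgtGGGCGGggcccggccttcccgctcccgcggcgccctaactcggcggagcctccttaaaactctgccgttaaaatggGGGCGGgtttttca
Cdkn2c, inner start, chr4:109665323-109665622, minus strand: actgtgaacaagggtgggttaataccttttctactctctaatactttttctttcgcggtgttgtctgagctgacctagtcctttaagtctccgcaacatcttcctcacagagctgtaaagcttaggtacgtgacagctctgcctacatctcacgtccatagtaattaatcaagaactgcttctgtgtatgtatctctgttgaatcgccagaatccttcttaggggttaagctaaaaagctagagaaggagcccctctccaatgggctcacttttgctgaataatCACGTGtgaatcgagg

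The p53 element of the outer *Cdkn1a* promoter begins at position -51 from the start, reads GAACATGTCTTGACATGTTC and differs from the consensus at 1 base. An element of this form stood in 18 of 32851 promoters of the same length, or 0.0548%, and in no other of the 9 member promoters. p53 is the best known activator of *Cdkn1a*. GC boxes on either strand stood in 35.7% of all promoters, with 2 in the inner *Cdkn1a* promoter and 4 in the outer *Cdkn2c* promoter. The E-box stood in 7.15% of all promoters and, of the member promoters, in the inner one of *Cdkn2c* alone. The CCAAT box, found in 37.4% of all promoters, stood in 4 of the 9 and in neither promoter of *Cdkn1a*, and no member promoter held TATAAA or the AP-1 site TGANTCA, present in 13.6% and 7.81% of all. None of the capitals overlap a match of another motif searched. These matches describe the letters in the windows, not bound sites.

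Genotypes were compared within each cell type with limma on log2 signal, over the transcript clusters that reached a signal of 100 in at least 1 of the 6 arrays. A gene was called when its fold change exceeded 1.5 at an unadjusted p under 0.05, and the Benjamini-Hochberg adjusted p over all transcript clusters tested is given beside it. In endothelial cells 7 of the 9 genes were tested and 1, *Cdkn1a*, was called, higher in mutants. There the screen called 3.82% of 11330 transcript clusters, 2.96% as higher and 0.865% as lower, and 1.29% had an adjusted p under 0.05, as *Cdkn1a* did. In mesangial cells 8 were tested by the cluster that stands for each gene and 1, *Cdkn2c*, was called on its measured signals, higher in mutants. The second cluster of *Ccnd2*, not counted here, also passed the mesangial screen, lower in mutants (log2 fold change -0.90, adjusted p = 0.0497). Of 11457 transcript clusters the screen called 5.19%, 2.08% as higher and 3.12% as lower, and 2.92% had an adjusted p under 0.05. *Cdkn2c* entered this test through the mutant arrays alone. With the wild type arrays set to the minimum it was at least 1.49-fold higher, under the fold of the screen. Its call and its adjusted p (0.0418) are therefore not set against these shares. In podocytes 7 were tested and none was called, against 5.61% of 12113, 1.26% as higher and 4.34% as lower. None of the 7 had an adjusted p under 0.05, as 0.0578% of the transcript clusters did, or an unadjusted one, as 14.3% did. The podocyte genes with the smallest unadjusted p were *Cdkn2d*, at 0.0762, and *Ccnd1*, at 0.124. The median log2 fold change of the members tested was 0.08 in endothelial cells, -0.05 in mesangial cells and 0.16 in podocytes, beside 0.07, -0.02 and -0.04 over all transcript clusters tested. These medians include members that reached the signal minimum in mutant arrays alone, *Cdkn2c* and *Cdkn2d* in mesangial cells, *Cdkn2d* in podocytes and *Cdkn2c* in endothelial cells.

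**Figure D1:**
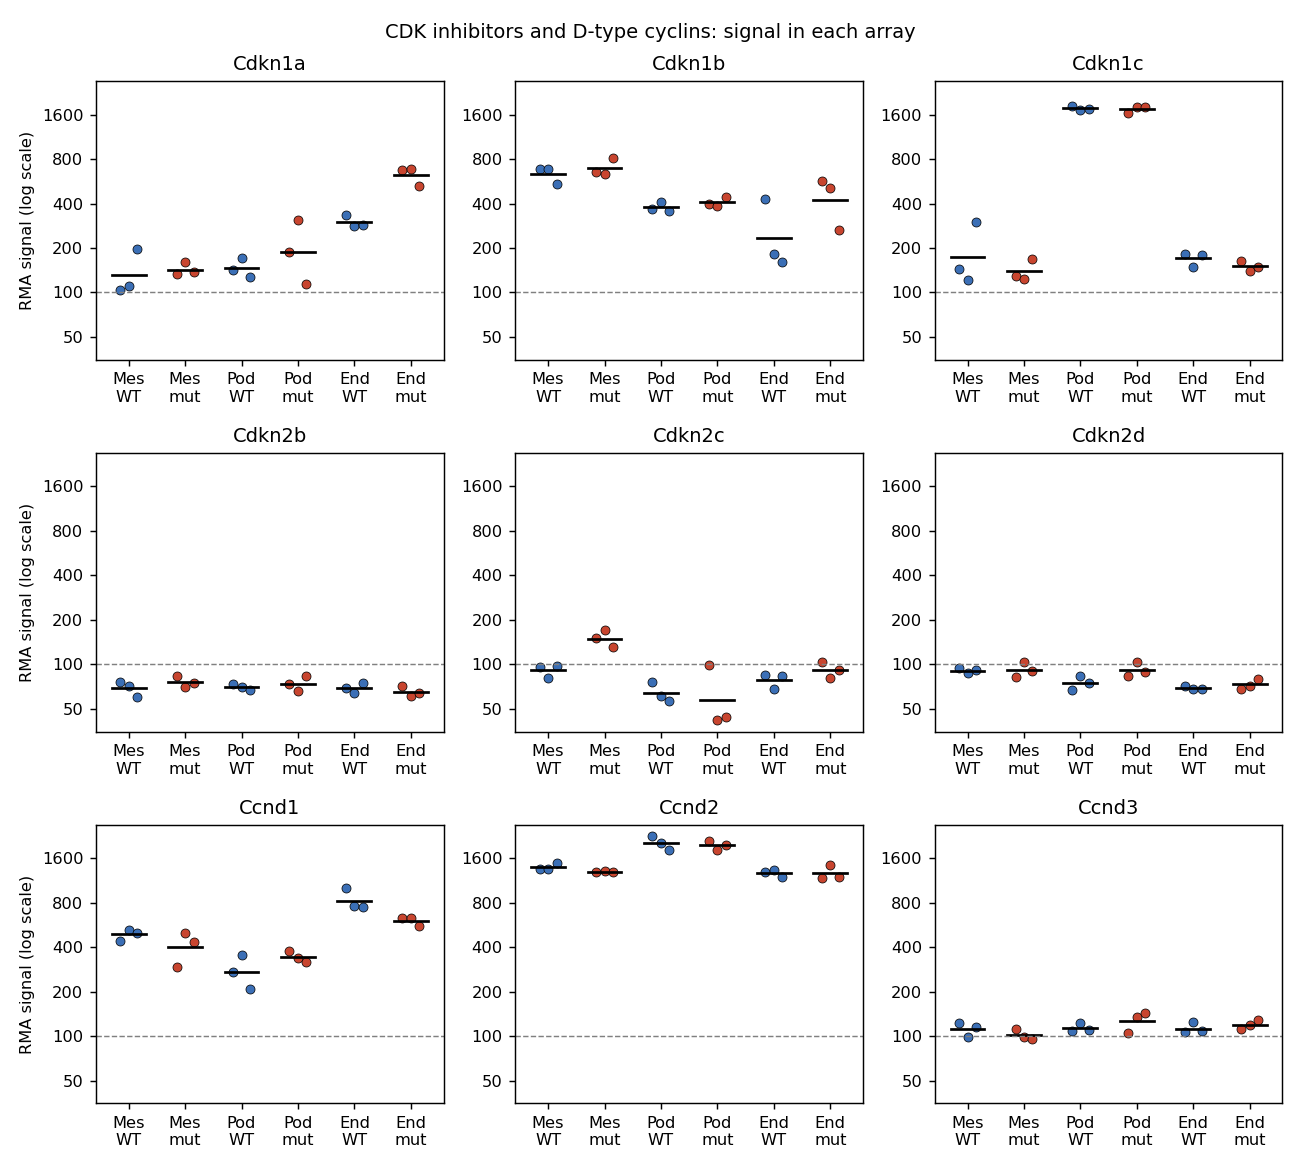
RMA signal (log scale) of each of the 9 genes in the 18 arrays, by cell type (Mes, mesangial; Pod, podocyte; End, endothelial) and genotype (WT, wild type, blue; mut, mutant, red). Points are arrays A, B and C from left to right, black lines are means of log2 signal and the dashed line is the signal minimum of 100. *Cdkn1c* stands at 1642.8 to 1841.3 in the 6 podocyte arrays, and *Cdkn1a* is highest in the endothelial mutant arrays.

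*Cdkn1a*, which encodes p21, a Cip/Kip inhibitor induced by p53 and by other stress signals, had signals of 676.2, 688.3 and 526.4 in endothelial mutant arrays A, B and C. In the endothelial wild type arrays they were 334.7, 281.2 and 286.4. All mutant arrays lay above all wild type arrays, and the lowest mutant array was well clear of the highest wild type array. *Cdkn1a* rose 2.09-fold, a log2 fold change of 1.06 (standard error 0.13, 95% interval 0.76 to 1.37, adjusted p = 0.0105). As the cells were measured in bulk, a change in the share of cells that express a gene and a change in RNA per cell cannot be told apart.

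The Y-linked signal moved with this result, since 4 of the 4 Y-linked genes were called higher in endothelial mutants and the signal was high in mutant arrays A and B alone. With mutant array C, the remaining mutant array, against the 3 wild type arrays, the log2 fold change of *Cdkn1a* was 0.81 (adjusted p = 0.178), the lone array being assumed to vary like the others. Across 15 alternatives, the values were 0.81 to 1.19 and the adjusted p 0.00326 to 0.178. Markers of other cell types were not called between these groups. None of the 5 mesangial markers reached the signal minimum, the leukocyte sum was 456.1 to 698.4 in mutant and 456.0 to 520.8 in wild type arrays, and the podocyte sum was 1445.2 to 1593.7 and 1335.7 to 1440.2.

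In mesangial cells *Cdkn1a* had signals of 133.4, 160.7 and 136.8 in mutant arrays and 103.6, 110.4 and 196.3 in wild type arrays, which overlap. The highest value was that of wild type array C, which also carried podocyte and endothelial markers. The log2 fold change was 0.13 (adjusted p = 0.796), and 0.42 (adjusted p = 0.134) without that array. In podocytes the signals were 187.0, 307.7 and 114.7 in mutant and 142.1, 170.6 and 127.4 in wild type arrays. Endothelial markers were lower in these mutant arrays, and their part in the podocyte values was not tested. The podocyte mutant arrays spread over the whole range of the wild types and beyond, with array B at the top and array C at the bottom, and the log2 fold change was 0.36 (95% interval -0.40 to 1.13, adjusted p = 0.643). Without mutant array C it was 0.72 and passed the screen (adjusted p = 0.258), and with the arrays of low Y-linked signal alone, mutant A and C against wild type B and C, it was -0.01. The genotype effect on *Cdkn1a* was not shown to differ between cell types: mesangial minus endothelial it was -0.93 (95% interval -1.78 to -0.08, adjusted p = 0.267), and podocyte minus endothelial -0.70 (95% interval -1.55 to 0.15, adjusted p = 0.299).

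Among wild type arrays *Cdkn1a* was highest in endothelial cells, 2.29-fold over mesangial cells (log2 difference mesangial minus endothelial of -1.19, standard error 0.22, adjusted p = 0.00294) and 2.06-fold over podocytes (-1.04, adjusted p = 0.00488). Podocytes and mesangial cells did not differ beyond their spread (0.15, 95% interval -0.35 to 0.66). The order was the same in mutant arrays, where endothelial cells stood 4.37-fold over mesangial cells (adjusted p = 0.000484) and 3.34-fold over podocytes (adjusted p = 0.00123). The screen for a difference between cell types, an adjusted p under 0.05, passed 27.9% of 12537 transcript clusters between wild type podocytes and mesangial cells, 38.8% between podocytes and endothelial cells and 32.0% between mesangial and endothelial cells. Of the 6 members tested in wild type arrays, 3, 4 and 3 passed it. In mutant arrays 29.0%, 47.1% and 22.8% of 13063 passed, and 4, 4 and 2 of the 8 members tested, *Cdkn2c* in the first of these through its mesangial signals.

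*Cdkn1b*, which encodes p27, a Cip/Kip inhibitor known for holding resting cells out of the cycle, had signals of 566.6, 510.7 and 264.6 in endothelial mutant arrays. In endothelial wild type arrays they were 428.2, 183.0 and 161.5. The groups overlap, because wild type array A was higher than mutant array C. The log2 fold change was 0.87 (standard error 0.41, 95% interval -0.08 to 1.81, adjusted p = 0.299) and *Cdkn1b* was not called. It passed the screen without wild type array A (1.30, adjusted p = 0.0851), without mutant array C (1.21, adjusted p = 0.218), with array weights (1.07, adjusted p = 0.153) and in a fit over all 18 arrays (0.87, adjusted p = 0.183), and with mutant array C against the wild types it was 0.18 (adjusted p = 0.955). Over its 16 alternatives the adjusted p was 0.0851 to 0.955.

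A second transcript cluster of *Cdkn1b* spread less in endothelial cells, with 336.7, 298.4 and 347.1 in mutant and 318.6, 280.7 and 233.4 in wild type arrays, a difference of 0.25 on the log2 scale (adjusted p = 0.351). The 2 clusters thus do not share the low value of mutant array C. In mesangial cells the second cluster had 319.1, 315.6 and 387.0 in mutant and 252.4, 292.1 and 295.2 in wild type arrays, which do not overlap, and its log2 difference of 0.28 was below the fold of the screen (unadjusted p = 0.0482, adjusted p = 0.227). Groups did not overlap in 28.6% of all transcript clusters tested in mesangial cells, 21.3% in podocytes and 25.1% in endothelial cells. The representative cluster had a mesangial log2 fold change of 0.13 (adjusted p = 0.628) and a podocyte one of 0.10 (adjusted p = 0.742).

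The representative *Cdkn1b* cluster was 2.72-fold higher in wild type mesangial than endothelial cells (log2 difference 1.44, standard error 0.31, adjusted p = 0.00585). Signals were 541.2 to 688.7 in mesangial cells, 357.9 to 412.3 in podocytes and 161.5 to 428.2 in endothelial cells. The podocyte mean lay between the other means, although endothelial array A was above all podocyte arrays. Podocytes were not shown to differ from either neighbour in wild type arrays (adjusted p = 0.101 and 0.102). In mutant arrays mesangial cells exceeded podocytes (log2 difference podocyte minus mesangial of -0.77, adjusted p = 0.0445), a call that was lost in 7 of 9 fits that left out 1 array, and the second cluster gave -0.41 (adjusted p = 0.044). The second cluster was not shown to differ between wild type cell types, with adjusted p of 0.377 to 0.921, so the wild type order of *Cdkn1b* rests on 1 of its 2 clusters.

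*Cdkn1c*, which encodes p57, the Cip/Kip inhibitor used as a marker of mature podocytes, had signals of 1841.3, 1724.2 and 1738.3 in podocyte wild type arrays and 1642.8, 1789.5 and 1797.8 in podocyte mutant arrays. In the mesangial and endothelial arrays it lay between 121.1 and 301.6, and no array of those cells came near a podocyte array. Wild type podocytes exceeded mesangial cells 10.1-fold (log2 difference 3.34, standard error 0.28, adjusted p = 3.17e-05) and endothelial cells 10.4-fold (3.38, adjusted p = 1.7e-05), and mutant podocytes did so 12.5-fold and 11.6-fold. The value of 301.6 came from mesangial wild type array C, and without that array the wild type difference from mesangial cells was 3.74. *Cdkn1c* was thus raised in an array where podocyte markers were raised, as were endothelial, tubule and leukocyte markers.

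Between genotypes *Cdkn1c* in podocytes gave a log2 fold change of -0.02, with a narrow 95% interval of -0.29 to 0.25 (adjusted p = 0.949). This interval excludes a change of 1.5-fold in either direction. Over 15 alternatives the value stayed between -0.05 and 0.02. In mesangial cells the value was -0.33 (adjusted p = 0.614), and 0.07 without wild type array C, and in endothelial cells it was -0.18 (adjusted p = 0.421).

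*Cdkn2b*, which encodes p15, an INK4 inhibitor known to be induced by TGF-beta, had signals of 60.0 to 83.9 in all 18 arrays. It reached the minimum of 100 in none and was not tested. *Cdkn2d*, which encodes p19, another INK4 inhibitor, had signals of at most 103.5, close to the minimum or below it throughout, and its transcript cluster also carries the symbol *Gm4694*, so its signal cannot be given to *Cdkn2d* alone. Its measured log2 differences were 0.01 in mesangial cells (adjusted p = 0.96) and 0.29 in podocytes (adjusted p = 0.393). No group mean was above the minimum, so no fold is read from them. The podocyte groups just failed to overlap, with at least 83.5 in mutant and at most 83.3 in wild type arrays.

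*Cdkn2c*, which encodes p18, an INK4 inhibitor known for restraining Cdk6, had signals of 150.3, 169.5 and 130.7 in mesangial mutant arrays. In mesangial wild type arrays they were 95.2, 80.4 and 98.0. All mutant arrays lay above the minimum of 100 and all wild type arrays below it, so *Cdkn2c* entered the test through the mutant arrays alone. With the wild type arrays set to the minimum, it was at least 1.49-fold higher in mutants, under the fold of the screen. The measured signals differed by 0.72 on the log2 scale (standard error 0.13, 95% interval 0.41 to 1.02, adjusted p = 0.0418). That difference is taken against signals under the minimum, in a gene admitted by its higher group, so only the bound is read. With 50 added to each signal before the logarithm the value was 0.50, under the fold of the screen (adjusted p = 0.0382). Over 15 alternatives the values were 0.50 to 0.81 and the adjusted p 0.0181 to 0.304.

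Other cell type markers moved between the mesangial groups. Of 5 mesangial markers 2 were called lower, with sums of 5782.3 to 6582.9 in mutant and 8381.0 to 9245.8 in wild type arrays, and of 7 endothelial markers 2 were called lower, with sums of 2057.9 to 2379.7 and 2185.4 to 7139.5. Of 5 smooth muscle and juxtaglomerular markers 2 were called higher, with sums of 1591.6 to 2892.3 and 1326.2 to 1608.8, and 4 of the 4 Y-linked genes were called lower. Of 7 podocyte markers 1 was called lower, *Wt1* (-0.62, adjusted p = 0.0728), and the summed signal of the list was 686.8 to 786.3 in mutant and 784.5 to 3536.4 in wild type arrays. Without wild type array C, *Cdkn2c* stood at 0.77 (adjusted p = 0.0532), and with the 3 mutant arrays against wild type array A, the one mesangial wild type array of low Y-linked signal, at 0.65 (adjusted p = 0.304), a value with 1 array on the wild type side. The part of the cells these markers stand for in the result was not tested.

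In podocytes *Cdkn2c* had signals of 98.9, 42.2 and 43.8 in mutant and 76.3, 60.6 and 56.8 in wild type arrays, below the minimum in all 6. Mutant array A stood apart from B and C. In endothelial cells the signals were 103.6, 81.0 and 90.9 in mutant and 84.1, 67.8 and 82.9 in wild type arrays, which overlap, and the log2 difference was 0.23 (adjusted p = 0.374). Differences of genotype effects that involve podocytes would therefore rest on signals under the minimum for *Cdkn2c*, and none passed with all arrays. In mutant arrays all mesangial signals, 130.7 to 169.5, lay above all podocyte signals, and mesangial cells were at least 1.49-fold higher with the podocyte arrays set to the minimum. No wild type array reached the minimum, so the same contrast was not tested there.

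**Figure D2:**
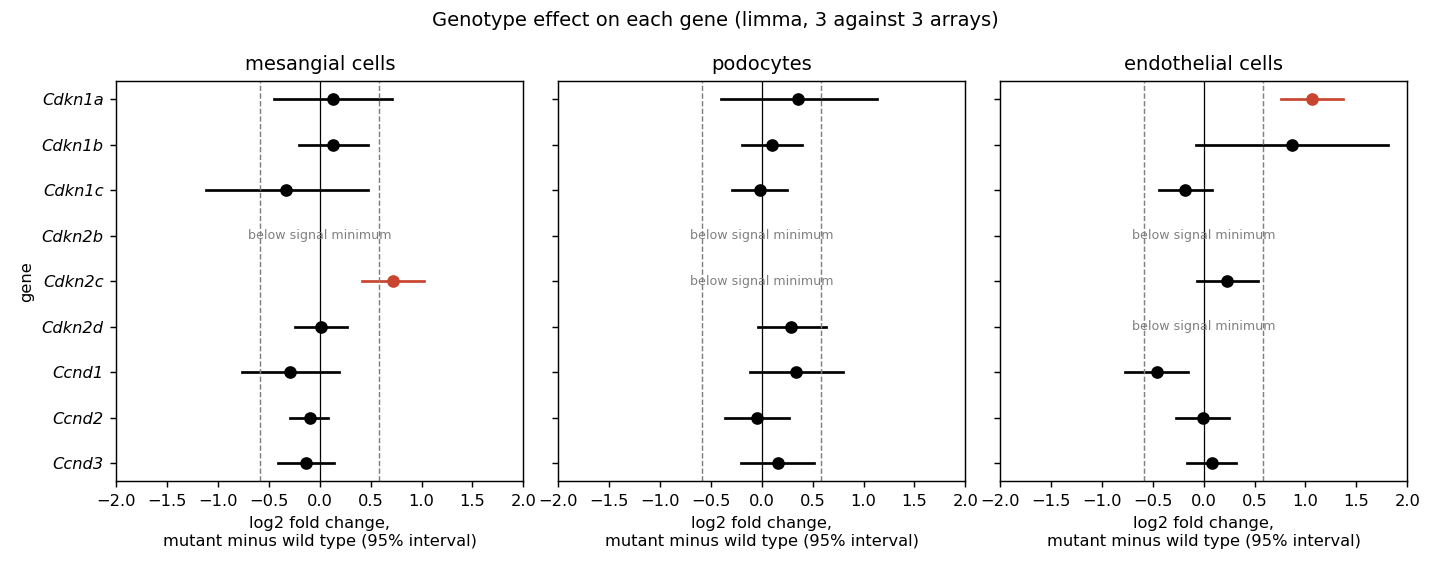
Log2 fold change of each gene, mutant minus wild type, in mesangial cells, podocytes and endothelial cells, with 95% intervals from limma over 3 against 3 arrays. Dashed lines mark a fold change of 1.5 and red points the genes that passed the screen, *Cdkn2c* in mesangial cells (0.72 as measured) and *Cdkn1a* in endothelial cells (1.06). Second clusters, that of *Ccnd2* among them, are not drawn. The mesangial wild type signals of *Cdkn2c* all lay under the minimum. With them set to it, *Cdkn2c* was at least 1.49-fold higher in mutants, under the fold of the screen.

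*Ccnd1*, the D-type cyclin best known as a target of mitogen signals, had signals of 627.5, 626.1 and 555.9 in endothelial mutant arrays and 1003.7, 755.3 and 743.3 in wild type arrays. All mutant arrays lay below all wild type arrays, the opposite side from *Cdkn1a* in the same arrays. The log2 fold change was -0.46 (standard error 0.13, 95% interval -0.77 to -0.15, unadjusted p = 0.00967, adjusted p = 0.154), and its size, 1.37-fold, was below the fold of the screen. Over 16 alternatives it lay between -0.57 and -0.26, and the adjusted p between 0.0804 and 0.485. With mutant array C alone, the one of low Y-linked signal, it was -0.57. A second cluster, which also carries the symbol *Oraov1*, gave -0.07 (adjusted p = 0.734).

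In mesangial cells *Ccnd1* had 292.8, 501.4 and 435.5 in mutant and 440.0, 526.1 and 501.2 in wild type arrays, a difference of -0.29 on the log2 scale (adjusted p = 0.456). In podocytes it had 378.4, 337.8 and 318.2 in mutant and 271.5, 351.3 and 209.3 in wild type arrays, with 0.34 (adjusted p = 0.471). Both pairs of groups overlap. Endothelial marker sums were 679.0 to 2419.8 in mutant and 4060.6 to 5344.6 in wild type podocyte arrays. The part of these markers in the podocyte values of *Ccnd1* was not tested. The effect in podocytes minus that in endothelial cells was 0.80 (95% interval 0.21 to 1.39, unadjusted p = 0.0111, adjusted p = 0.111), which did not pass. The screen for a difference of genotype effects, an adjusted p under 0.05 over 13523 transcript clusters, passed 0.717% for podocytes minus mesangial cells, 2.11% for podocytes minus endothelial cells and 1.07% for mesangial minus endothelial cells, and none of the members in any of the 3.

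The representative *Ccnd1* cluster separated the wild type cell types in a full order, endothelial over mesangial over podocyte. Endothelial cells exceeded podocytes 3.05-fold (log2 difference podocyte minus endothelial of -1.61, standard error 0.19, adjusted p = 0.000145) and mesangial cells 1.69-fold (mesangial minus endothelial -0.76, adjusted p = 0.0128), and mesangial cells exceeded podocytes 1.8-fold (podocyte minus mesangial -0.85, adjusted p = 0.00867). The second cluster gave -0.24, -0.18 and -0.05 for the same contrasts, with adjusted p of 0.101 to 0.736, so this order rests on 1 of the 2 clusters. In mutant arrays the distance between endothelial cells and podocytes was 1.75-fold (-0.81, adjusted p = 0.00588) and mesangial cells and podocytes no longer passed (-0.22, 95% interval -0.63 to 0.19). Mutant mesangial cells lay below endothelial cells (-0.59, adjusted p = 0.044), a call lost in 6 of 9 fits that left out 1 array.

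*Ccnd2*, the D-type cyclin known for its role in ovarian granulosa cells and neural progenitors, had signals of 2244.3, 2022.9 and 1813.4 in podocyte wild type arrays and 2092.9, 1812.4 and 1969.4 in podocyte mutant arrays. In the other cells it was 1166.2 to 1478.0, and all 12 of those arrays lay below all 6 podocyte arrays. Wild type podocytes exceeded mesangial cells 1.45-fold (log2 difference 0.53, standard error 0.10, adjusted p = 0.00365) and endothelial cells 1.59-fold (0.67, adjusted p = 0.000638), and mutant podocytes did so 1.5-fold (adjusted p = 0.00491) and 1.55-fold (adjusted p = 0.00188). This *Ccnd2* cluster was thus highest in the same cells as the inhibitor *Cdkn1c*, and the second cluster described below was not. The log2 fold change between genotypes was -0.10 in mesangial cells (95% interval -0.29 to 0.08), -0.05 in podocytes (-0.36 to 0.27) and -0.01 in endothelial cells (-0.27 to 0.25), and no interval reached 1.5-fold.

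A second transcript cluster of *Ccnd2* behaved otherwise. In mesangial cells its signals were 153.5, 157.1 and 176.4 in mutant and 248.5, 282.3 and 392.8 in wild type arrays. All mutant arrays lay below all wild type arrays, and array C, which carried the markers of other cells, was the highest wild type. It fell 1.86-fold and passed the screen, with a log2 fold change of -0.90 (standard error 0.17, 95% interval -1.31 to -0.49, adjusted p = 0.0497). The first cluster gave -0.10 (adjusted p = 0.487). In each of the 6 fits that left out 1 array the second cluster passed the screen again. Without wild type array C the value was -0.71 (adjusted p = 0.037), and with the mutants against wild type array A -0.62 (adjusted p = 0.236). The adjusted p over 15 alternatives was 0.02 to 0.236. The mean of both clusters gave -0.50 (adjusted p = 0.0741).

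The cell type order of this second *Ccnd2* cluster also differed. It was highest in endothelial cells, at 424.6 to 576.9 in wild type arrays, 2.12-fold over podocytes (adjusted p = 0.00145) and 1.68-fold over mesangial cells (adjusted p = 0.0133), while the first cluster was highest in podocytes. The endothelial genotype difference was -0.23 (adjusted p = 0.581). With mutant array C alone against the wild types it was -0.67 (adjusted p = 0.386), a value with 1 array on the mutant side. In podocytes the difference was -0.35 (adjusted p = 0.401). Which part of the gene either cluster covers is not given in the sources used here.

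**Figure D3:**
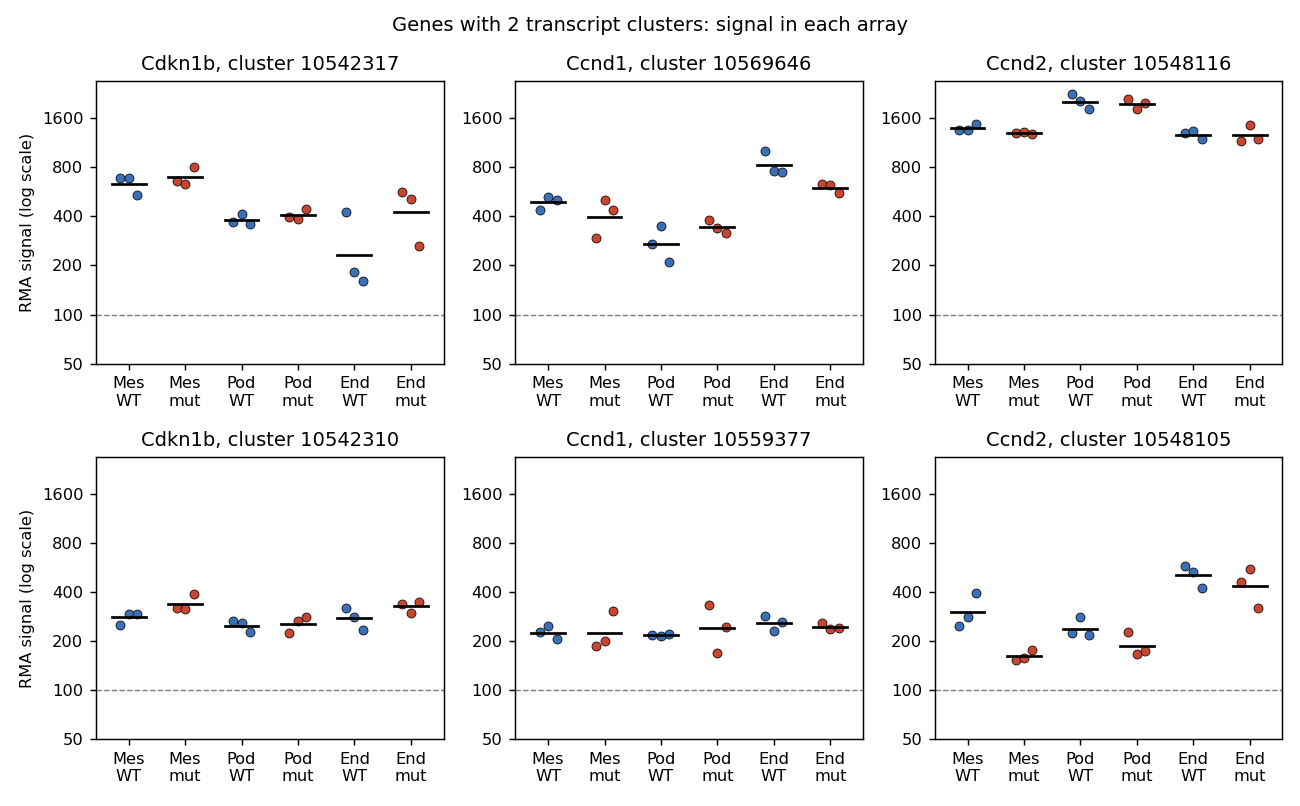
RMA signal (log scale) of the 2 transcript clusters of *Cdkn1b*, *Ccnd1* and *Ccnd2* in the 18 arrays, the representative cluster above and the second cluster below. Points are arrays A, B and C, black lines means of log2 signal and the dashed line the signal minimum of 100. The second *Ccnd2* cluster is lower in mesangial mutant arrays (153.5 to 176.4) than in mesangial wild type arrays (248.5 to 392.8), and the first differs less, with 1283.4 to 1320.5 against 1357.7 to 1478.0.

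*Ccnd3*, the D-type cyclin known from lymphocytes and other differentiating cells, had signals of at most 143.6 in the 18 arrays, near the minimum. No genotype comparison was called, with log2 fold changes of -0.14 in mesangial cells, 0.16 in podocytes and 0.08 in endothelial cells and adjusted p of 0.546 to 0.692. No cell type comparison passed either, the smallest adjusted p being 0.113 for mutant podocytes minus mesangial cells (log2 difference 0.32).

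The 8 members that reached the signal minimum in any array, all but *Cdkn2b*, were also set against 11130 to 11132 other transcript clusters by the Pearson r of log2 signal over the 18 arrays. The clusters compared carry 1 gene symbol and reached the minimum in at least 1 array. These arrays share cell types, so a high r says mainly that 2 genes rank the cell types alike. *Cdkn1c* was closest to *Nphs1*, which encodes nephrin of the slit diaphragm (r = 0.996), followed by *Myom2* (0.995) and *Ezr*, which encodes ezrin (0.994). *Ccnd2* was closest to the calmodulin gene *Calm2* (0.975), and *Cdkn1a* to *Glul*, which encodes glutamine synthetase (0.936), and *Pfkp*, a phosphofructokinase gene (0.934). *Ccnd1* was closest to the tubulin gene *Tubb5* (0.91) and the histone gene *H2afz* (0.896), *Cdkn1b* to *Fez2* (0.92), and *Cdkn2c* to *Armcx2* and *Fbln5* (both 0.91). *Cdkn2d* (0.874, with *Cnn1*) and *Ccnd3* (0.797, with *Dnajc7*) had looser neighbours. Among the members, *Cdkn1c* and *Ccnd2* had the highest r, 0.93, *Cdkn1a* and *Ccnd1* had 0.59, and *Ccnd1* and *Ccnd2* -0.69.

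Lists of genes around the members were counted in the same genotype comparisons. Of 6 partner kinases and pocket proteins, none was called in any cell type. *Cdk4*, the main partner of D cyclins, had mesangial signals of 305.2, 308.6 and 326.8 in mutant and 364.7, 344.9 and 368.5 in wild type arrays, which do not overlap (log2 fold change -0.20, adjusted p = 0.213). *Rb1*, which encodes the retinoblastoma protein, had podocyte signals of 246.4, 233.8 and 240.3 in mutant and 305.9, 315.9 and 308.7 in wild type arrays, which do not overlap either (-0.37, adjusted p = 0.218). Groups also did not overlap for *Rbl1* in mesangial cells, with 71.3, 89.1 and 86.0 in mutant and 101.1, 104.6 and 111.2 in wild type arrays (adjusted p = 0.127). *Rbl1* reached the minimum there in wild type arrays alone. In endothelial cells *Rbl2* did not overlap, higher in mutants (0.18, adjusted p = 0.403). All these differences are below the fold of the screen. Groups thus did not overlap for 2 of 5 tested in mesangial cells, 1 of 5 in podocytes and 1 of 6 in endothelial cells. Over all transcript clusters tested the shares were 28.6%, 21.3% and 25.1%, so these counts are not read as a result about the list.

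Of 13 cyclin E and A, E2F and DP genes, 1 was called, *E2f3*, an activator of replication genes, lower in mutant podocytes (-0.69, adjusted p = 0.327), among 8 tested there, and this call was lost in 4 of 6 fits that left out 1 array. Among 7 tested in mesangial and 7 in endothelial cells none was called. Of 22 replication and mitosis genes, 9 were tested in mesangial cells and 3 were called lower. They were *Top2a*, a topoisomerase gene (-1.12, adjusted p = 0.166), *Cenpf*, which encodes a centromere protein (adjusted p = 0.145), and *Mki67*, which encodes the proliferation marker Ki-67 (adjusted p = 0.22). *Cenpf* and *Mki67* reached the minimum in wild type array C alone, at 159.7 and 161.8. All their mutant arrays lay under it, so no fold is given for them. *Top2a* had signals of 53.9, 116.2 and 86.2 in mutant and 132.0, 140.8 and 298.5 in wild type arrays. The highest value came from wild type array C again. Without that array *Top2a* gave -0.74 (adjusted p = 0.251), while *Cenpf* and *Mki67* no longer reached the signal minimum and were not tested. Without mutant array A none of the 3 passed the screen, and without mutant array C neither *Top2a* nor *Mki67* did. Of the 9 genes, 5 reached the minimum in wild type arrays alone, 4 of these in a single array, so the filter admitted them through the group where they are high and neither their common sign nor their median is read. *Cdkn2c* was higher and the second *Ccnd2* cluster lower in the same arrays, and a link between these values was not tested.

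In endothelial cells 13 of the 22 replication and mitosis genes were tested and none was called, and 5 of the 13 reached the signal minimum in wild type arrays alone. *Top2a* had signals of 63.7, 129.1 and 74.2 in mutant and 252.3, 54.2 and 113.5 in wild type arrays, so the wild type arrays span the mutants. In podocytes 4 were tested and none was called, and 18 lay under the signal minimum.

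Of 20 genes known as p53 targets, with *Cdkn1a* left out, 13 were tested in endothelial cells and 1 was called, *Tnfrsf10b*, a death receptor gene, higher in mutants (adjusted p = 0.172). Its signals were 173.8, 93.4 and 171.2 in mutant and 85.4, 91.1 and 76.2 in wild type arrays. Mutant arrays A and C were high, while array B stood close to the wild types. The gene reached the signal minimum in mutant arrays alone, was at least 1.41-fold higher there with the wild type arrays set to the minimum, under the fold of the screen, and was no longer called without mutant array A. In podocytes 13 were tested. *Gadd45a*, a stress gene of growth arrest (-0.91, adjusted p = 0.143), *Trp53inp1* (-0.63, adjusted p = 0.143, lost in 2 of 6 fits that left out 1 array) and *Ccng1* (-0.62, adjusted p = 0.325, lost in 5 of 6 fits that left out 1 array) were called lower, and *Perp*, which encodes a membrane protein of cell death and adhesion, higher (adjusted p = 0.198). *Perp* reached the signal minimum in mutant array B alone and was not tested without it. Neither group's mean is above the minimum, so no fold is given. In mesangial cells 12 were tested and *Plk2*, a kinase gene, was called lower (-1.09, adjusted p = 0.162). Its wild type signals were 201.1, 192.6 and 431.7, the highest in array C, and without that array the difference was -0.71 (adjusted p = 0.232) and still passed the screen, which it did not without mutant array C. *Plk2* had 1172.0 to 1721.0 in endothelial arrays, and the part of endothelial RNA in array C in this call was not tested. The podocyte calls stand beside endothelial markers that were called lower in 6 of 7 cases in the same comparison, mesangial markers called lower in 2 of 5, with sums of 760.1 to 2406.8 in mutant and 2652.4 to 3486.6 in wild type arrays, and smooth muscle and juxtaglomerular markers called higher in 2 of 4 tested, with sums of 1021.6 to 2970.2 and 766.3 to 782.9. Of 7 podocyte markers 1, *Ptpro*, was called lower (-0.65, adjusted p = 0.267), with sums of 10698.3 to 12698.4 in mutant and 11775.3 to 13369.9 in wild type arrays. The leukocyte marker *Csf1r* was called higher (adjusted p = 0.22). It reached the signal minimum in mutant arrays alone and was at least 1.07-fold higher there with the wild type arrays set to the minimum. The part of the other cell types in the podocyte values was not tested.

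Of 12 parts of the ubiquitin ligases that degrade the members' proteins, 9 were tested in each cell type and none was called. Of 16 transcription factors known to act on the members' genes, 1 was called in mesangial cells, *Myc*, with signals of 97.5, 135.0 and 100.8 in mutant and 53.8, 55.9 and 48.6 in wild type arrays. The mutant arrays all lay above the wild types. The measured difference had an adjusted p of 0.0204, and of 0.0369 to 0.0716 when each array was left out. *Myc* entered the test through the mutant arrays alone, so these p-values rest on wild type signals under the minimum and only a bound is read. With the wild type arrays set to the minimum of 100 it was at least 1.10-fold higher in mutants, under the fold of the screen. In podocytes and endothelial cells none of the 11 and 13 tested was called.

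**Figure D4:**
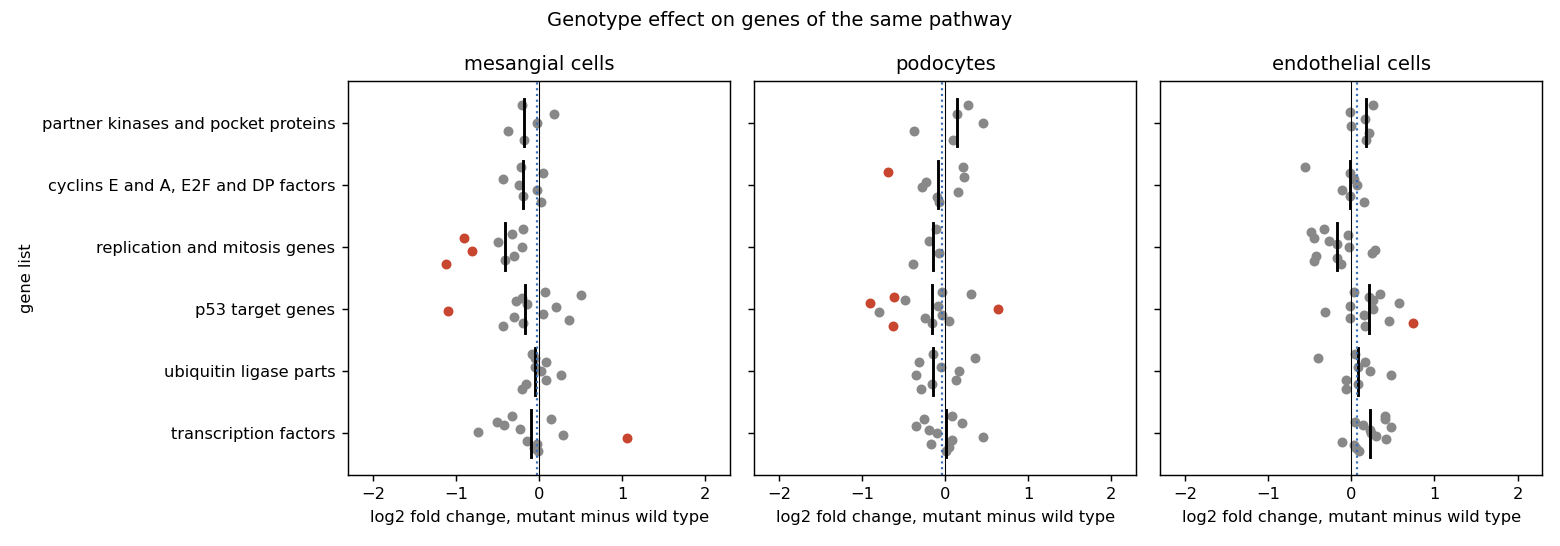
Log2 fold change, mutant minus wild type, of each tested gene of 6 lists around the members in the 3 cell types. Red points passed the screen, black bars are list medians and the dotted blue line is the median over all transcript clusters tested. Of the 9 replication and mitosis genes tested in mesangial cells, 5 reached the signal minimum in wild type arrays alone. The one called transcription factor there is *Myc* (1.06 as measured), which reached it in mutant arrays alone. With the wild type arrays set to the minimum, *Myc* was at least 1.10-fold higher in mutants.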

How the data were processed

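Affymetrix Mouse Gene 1.0 ST arrays measured sorted glomerular cells, 18 arrays in 6 groups taken from the sample labels and column names. The authors deposited a linear intensity per transcript cluster (RMA, by the sample records), and a second set of 18 columns was not used. The file header names the mm9 annotation. The series record names another array type and GeneBASE, which neither header nor methods mention. RMA includes a quantile normalization of probe values, which can hide a change shared by most genes (the array medians deposited still differ somewhat), and RNA amplification can distort low signals.

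Log2 signals were fitted with limma 3.58.1 (lmFit, eBayes; R 4.3.3), without covariates. Clusters entered a fit with a signal of at least 100 in 1 array. Genotype calls required a fold change over 1.5 at an unadjusted p under 0.05, thresholds taken from the paper, and cell type differences and differences of genotype effects a Benjamini-Hochberg adjusted p under 0.05. The code was tested on simulated data. Members, lists and tests were chosen with earlier results of these data known. The genes most like a member are the 3 clusters of highest r, and list genes are named when called, with *Cdk4*, *Rb1*, *Rbl1* and *Rbl2* chosen after their values were seen. Alternatives were other signal minimums, call rules, fits, scalings, an offset, array weights, cluster means, each array left out and, chosen after seeing the data, the arrays of low Y-linked signal alone and each array left out for called list genes.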

Additional observations from a re-analysis of the deposited data

How the results depend on the processing

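No paired analysis was possible because the replicate numbers of the labels are not shared between groups. Counted by the cluster that stands for each gene, the number of members called in mesangial cells was 1, *Cdkn2c*, whose wild type arrays were all under the minimum. It was 0 with log2(signal + 50) and 0 with the stricter rule of a signal of 500 and a fold of 2. In podocytes it was 0, and 0 to 1 when each array was left out. In endothelial cells it was 1, and 2 in a fit over all 18 arrays, 2 with array weights and 1 to 2 when each array was left out, *Cdkn1b* being the added gene. For differences of genotype effects it was 0, and 0 to 2 when each array was left out, both from *Cdkn2c* without podocyte mutant array A, where the podocyte signals of *Cdkn2c* are under the minimum. Cell type calls numbered 10 in wild type arrays, and 10 to 12 when each array was left out, and 10 in mutant arrays, and 8 to 13. Calls for *Cdkn1b* (podocyte minus mesangial, mutant arrays) and *Ccnd1* (mesangial minus endothelial, mutant arrays) were lost under several settings. No called value turned its sign under any setting run. The alternatives gave 169 genotype values in mesangial cells, 150 in podocytes and 152 in endothelial cells, called and uncalled together. Among them 9, 9 and 6 were uncalled values that changed sign. Signals of *Cdkn2b*, *Cdkn2d*, *Ccnd3* and wild type *Cdkn2c* lie near the signal minimum, where a change of level is hard to measure. Groups of 3 arrays leave wide intervals, and mixed Y-linked signal, other cells' markers and the unsettled mesangial control genotype limit the genotype comparisons.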
